A study of Mus musculus with 4 samples.

Results

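The table of the immortalized macrophages listed 416 entries of 55356 whose names are those of cytosolic ribosomal proteins or start like them. They were taken by name, as names that begin with *Rpl* or *Rps* followed by a digit, by p and a digit or by a, leaving out the kinases named *Rps6k*. The rule uses names only, and it was set with earlier results of these data known. The 416 entries were sorted by name into 77 parental genes (46 of the large subunit, 31 of the small subunit), 322 copies whose names contain -ps, called pseudogenes here, and 17 related genes such as *Rpl22l1*. The question put to them was how stable genes look across the libraries beside entries that share their sequence with a near-identical copy.

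All 4 libraries came from bone marrow-derived macrophages (BMDMs) of *MK2*-KO mice that had been immortalized (i*MK2*-KO). MK2 is a stress-activated kinase downstream of p38, encoded by *Mapkapk2*. The cells carried either the empty vector with GFP (i*MK2*-KO +*GFP*, labelled as the knockout) or MK2 put back by transduction (i*MK2*-KO +*MK2*, a genotype that the labels give as wt), and each was left untreated (UT) or received IL-1α at 5 ng/mL for 1 h, a cytokine released by dying or stressed cells. Each of the 4 conditions was 1 library of 1 transduced line, so no value below has a replicate check and no comparison has a p-value. A ratio compares 2 libraries, and a difference between the +*GFP* and +*MK2* lines cannot be told apart from any other difference between these transduced lines. The values are normalized counts of RNA from whole cultures, in which fewer cells of a type and less RNA per cell cannot be told apart.

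The cytosolic ribosome consists of a large and a small subunit, each built from ribosomal RNA and a fixed set of proteins, most of which are present as a single copy per particle. Mammalian genomes hold a single working gene with introns for most of these proteins. Because the mRNAs are short and very abundant, they have been reverse-transcribed and inserted elsewhere many times, which leaves intronless processed pseudogenes. A short read from such a stretch can match the parental gene and its copy equally well. Many ribosomal protein mRNAs begin with a C followed by a run of C and T bases, the 5′ terminal oligopyrimidine (TOP) motif, through which mTOR signaling controls their translation.

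The 4 libraries summed to between 24891906 and 25733071 normalized counts, with 17840 to 18152 entries above 0. *Mapkapk2* was at 561 (+*GFP*, UT), 1585 (+*GFP*, IL-1α), 38357 (+*MK2*, UT) and 38141 (+*MK2*, IL-1α), which matched the labels. All 10 macrophage markers examined had a mean of at least 10, the lowest at 762, and their sum lay between 123787 and 138754 per library. None of the 17 markers of T cells, B cells, fibroblasts, epithelium and endothelium reached a mean of 10. The highest of them had a mean of 2.75, and all 4 fibroblast markers were at 0. *Lyz2* alone contributed 59858 to 64591 to the macrophage sum. Other macrophage markers differed between the lines, such as *Mertk* with 421, 364, 1093 and 1168 and *Adgre1* with 3978, 4140, 6832 and 6330, both lower in +*GFP*, and *Cd14* with 3652, 8072, 1962 and 2250, higher in +*GFP*. The part of these differences in the results below was not tested.

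The copies differ widely in how much sequence sets them apart from their parent. The 4 cases that recur below are shown, each as 60 bases of coding sequence on the sense strand, 5′ to 3′, from GENCODE M21 (GRCm38). Capitals mark the positions at which parent and copy differ, counted from 1 at the first base of the parent's start codon. The first case is *Rpl35a* (chr16:33056453-33060189, plus strand) and *Rpl35a-ps2* (chr1:181241988-181242320, minus strand). The copy and its twins *Rpl35a-ps3*, *Rpl35a-ps4* and *Rpl35a-ps6* are identical to each other over all 333 bases, and each carries a single change from the parent, G156A. *Rpl35a-ps3* lies at chr17:29136972-29137304 (minus strand). Coding bases 126 to 185 are shown, to make visible that reads from the twins cannot be told apart while a single base separates them from the parent.
Rpl35a: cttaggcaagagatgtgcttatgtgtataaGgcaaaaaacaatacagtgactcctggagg
Rpl35a-ps2: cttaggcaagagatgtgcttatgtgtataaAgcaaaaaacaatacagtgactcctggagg
Rpl35a-ps3: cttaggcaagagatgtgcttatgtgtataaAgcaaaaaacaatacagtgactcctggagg

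The second case is a copy without any difference. *Rps23-ps1* (chr3:37714740-37715164, plus strand) matched *Rps23* (chr13:90922958-90924950, plus strand) at each of its 425 bases, and coding bases 1 to 60 are shown, with no capitals because nothing differs.
Rps23: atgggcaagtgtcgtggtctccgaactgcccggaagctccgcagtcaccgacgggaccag
Rps23-ps1: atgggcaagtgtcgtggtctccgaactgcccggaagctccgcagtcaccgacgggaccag

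The third case is a long copy with a few differences. *Rpsa-ps10* (chr3:150072658-150073542, minus strand) differed from *Rpsa* (chr9:120127689-120132369, plus strand) at 6 of 885 bases, of which T210C and C219T fall within coding bases 160 to 219.
Rpsa: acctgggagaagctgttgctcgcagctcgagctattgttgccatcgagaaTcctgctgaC
Rpsa-ps10: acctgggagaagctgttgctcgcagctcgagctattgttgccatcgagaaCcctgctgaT

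The fourth case is a more diverged copy. *Rps19-ps3* (chr4:147821777-147822202, minus strand) differed from *Rps19* (chr7:24884371-24889806, plus strand) at 20 aligned positions, gaps included. Coding bases 344 to 403 hold 5 of them, namely G369A, G372A, A381G, C390T and G403T.
Rps19: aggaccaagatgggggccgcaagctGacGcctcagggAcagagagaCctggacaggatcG
Rps19-ps3: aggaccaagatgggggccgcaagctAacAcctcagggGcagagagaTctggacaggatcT

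All 77 parental genes were abundant in all 4 libraries. Their means over the libraries ran from 6480 to 55213 normalized counts (*Rplp0*), with a median of 16317. All 416 entries together made up 6.20% (+*GFP*, UT), 6.17% (+*GFP*, IL-1α), 5.55% (+*MK2*, UT) and 5.52% (+*MK2*, IL-1α) of the library totals. The large-subunit genes took 3.50%, 3.50%, 3.20% and 3.19% in the same order, and the small-subunit genes 2.54%, 2.51%, 2.19% and 2.18%. Both +*GFP* libraries therefore held the larger share for each subunit. The 322 pseudogenes together took 0.0888%, 0.0806%, 0.0817% and 0.0721% of the totals.

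**Figure D1:**
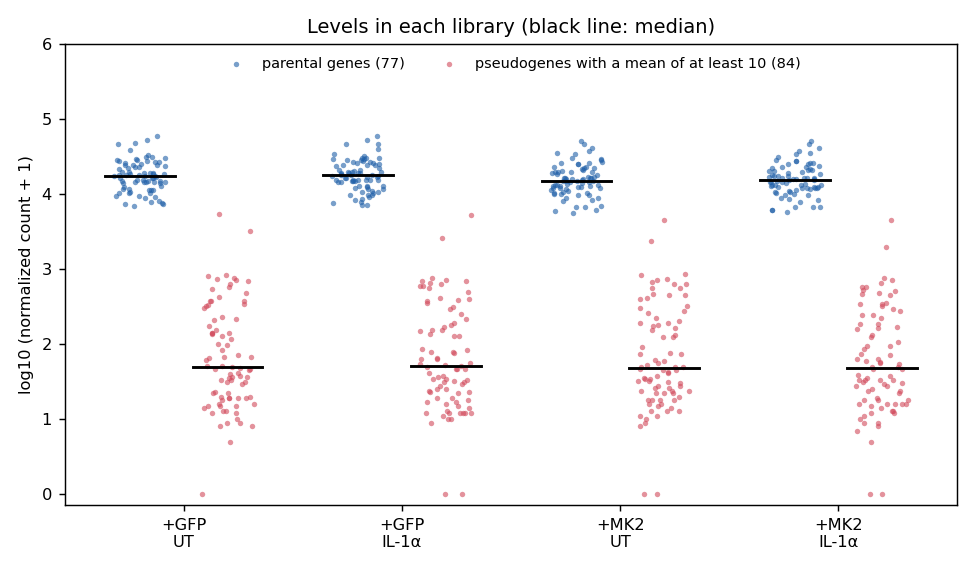
Level of each parental gene (blue, 77) and of each pseudogene with a mean of at least 10 (red, 84) in each of the 4 libraries, as log10 of the normalized count plus 1, with the median as a black line. Every parental gene lies above every pseudogene in each library, and the points at the bottom are pseudogenes at 0.

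Per kilobase of coding sequence, *Rpl41*, which encodes a very short basic peptide of the large subunit, had the highest level at 234027 normalized counts, over a coding sequence of 75 bases. Per kilobase of transcript it ranked 5 at 40165, and *Rplp1*, an acidic stalk protein, ranked first at 55379. Among the other genes with the highest levels per coding kilobase were *Rplp1* at 80802, *Rps29* at 63725, *Rps12* at 61699 and *Rplp0*, the protein that anchors the stalk, at 58058. The lowest levels per coding kilobase were those of *Rpl5* at 12389, *Rpl36a* at 20580, *Rpl24* at 21548, *Rpl22* at 22158 and *Rpl27* at 23222. The small-subunit genes lay within 2.34-fold of each other on this scale, and the 77 genes together spanned 18.9-fold.

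*Rpl5*, which binds 5S rRNA, was the lowest gene only when counted on its own. A copy outside the naming rule, *Gm15500*, holds no 38-base stretch that *Rpl5* lacks. With all copies added, the *Rpl5* family reached 35551 per coding kilobase and rank 44 of 77.

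The comparison of +*GFP* with +*MK2* asked how the ribosomal protein mRNAs differ between cells without and with MK2. In untreated cells 69 of the 77 parental genes were higher in +*GFP* and 8 were lower. The log2 ratio, taken after adding 1 to each value, had a median of 0.19 and ran from −0.29 (*Rpl7a*) to 0.41 (*Rpl13a*). Over all 12483 genes whose mean reached 10, called expressed genes here, the median was 0.02, and over the 5361 whose mean reached 1000, called abundant genes, it was 0.03. The ratio was beyond counting error, as an exact 95% interval that takes each normalized count as a read, for 66 genes in the higher and 7 in the lower direction, that is for 94.8%. Counting error is small at this level, and the share was 57.7% of the expressed genes, 71.7% of the abundant genes and 90.7% of the 364 genes whose mean reached 10000, a level that 67 of the 77 parental genes have. After IL-1α it was again 94.8%, beside 60%, 74.5% and 89.8%. These intervals cover counting error only, not the spread between cultures.

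The differences were small for each gene. Only *Rpl13a*, *Rpl39* and *Rps20* (3 of 77, 3.90%) differed by at least 25%, meaning that the higher of the 2 values was at least 25% above the lower after adding 1 to each, whereas 35.1% of the expressed and 20.3% of the abundant genes did. No parental gene differed by at least 2-fold, against 8.77% of the expressed genes. After IL-1α 69 genes were again higher and 8 lower, with a median log2 ratio of 0.24 (−0.31 to 0.43), while the expressed genes had a median of 0.03 and the abundant genes of 0.06. At that time 7 of the 77 differed by at least 25%, compared with 37.8% of the expressed and 22.4% of the abundant genes. None reached 2-fold, against 9.73% of the expressed genes. High genes differ less often in general. Of the 364 genes with means from 10000 on, 14.6% differed by at least 25% untreated and 15.7% after IL-1α, where 2.99% and 7.46% of the 67 parental genes among them did. The median log2 ratio of the 364 was 0.09 untreated and 0.11 after IL-1α.

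*Rpl13a*, a large-subunit protein also known for a role in translational silencing of inflammatory mRNAs, had 28412 (+*GFP*, UT), 28993 (+*GFP*, IL-1α), 21339 (+*MK2*, UT) and 21506 (+*MK2*, IL-1α) normalized counts. It was 1.33-fold higher in +*GFP* untreated and 1.35-fold higher after IL-1α, the highest ratio of the 77 genes at both times. *Rps20* had 14606, 14703, 11196 and 11411 in the same order, with log2 ratios of 0.38 and 0.37. *Rpl39*, a short protein of the exit tunnel, had 7296, 7232, 5588 and 5804, with log2 ratios of 0.38 and 0.32. For all 3 genes both +*GFP* libraries lay above both +*MK2* libraries, while the pair of libraries of the same line nearly coincided. *Rpsa*, a small-subunit protein also known as the laminin receptor precursor, whose copy is printed above, had 46066, 47164, 37335 and 37570 and followed the same pattern (0.30 and 0.33). *Rpl14* had 22692, 24005, 19122 and 18756, with log2 ratios of 0.25 untreated and 0.36 after IL-1α.

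This order of the libraries was common among parental genes. Both +*GFP* libraries lay above both +*MK2* libraries for 67 of 77 genes (87.0%) and below them for 6, and the groups overlapped for 4. Among the abundant genes, 45.4% lay above, 30.6% below and 24.0% overlapped. The highest of the 4 values exceeded the lowest by a median of 1.20-fold, from 1.02-fold for *Rpl30* (10707, 10676, 10518 and 10694) to 1.36-fold for *Rpl13a*. The corresponding median was 1.18-fold over the abundant genes. The ribosomal protein genes thus spanned about as wide a range as abundant genes in general, with most of them on the same side.

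The log2 ratios of the lines untreated and after IL-1α, which rest on separate libraries, followed each other across the 77 parental genes (Pearson's r = 0.953, Spearman's rho = 0.841). For 75 of the 77 the sign was the same. Genes are not independent replicates, so this is a description with no test. The ratios did not follow GC content, transcript length, coding length, mean level or the share of sequence unique to the gene, with Pearson's r between −0.08 and 0.13 over the same 77 genes.

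**Figure D2:**
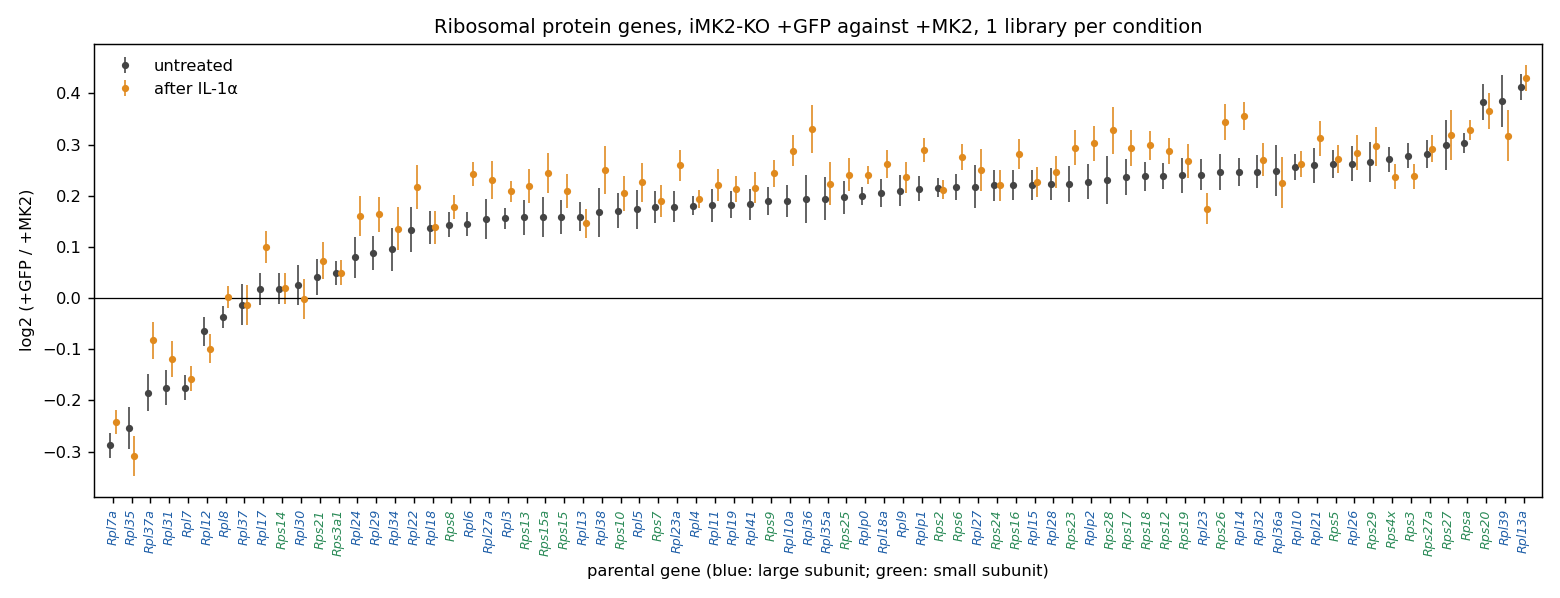
Log2 ratio of +*GFP* to +*MK2* for 76 of the 77 parental genes, untreated (dark) and after IL-1α (orange), with exact 95% counting intervals and the genes sorted by the untreated ratio (blue names for the large subunit, green for the small). Most points lie near the medians of 0.19 and 0.24, and the genes at the left, all of the large subunit, lie below 0.

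The small subunit was more uniform. All 31 small-subunit genes were higher in +*GFP* untreated, with a median of 0.22, and the lowest of them was *Rps14* at 0.02 (17918, 17581, 17694 and 17346). All 31 were higher after IL-1α too, with a median of 0.27. The 46 large-subunit genes had medians of 0.18 and 0.22, with 38 higher and 8 lower untreated.

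The genes that went the other way were all of the large subunit. *Rpl7a* had 24695, 26189, 30149 and 30980 normalized counts, with log2 ratios of −0.29 untreated and −0.24 after IL-1α. *Rpl35* had 9168, 9660, 10933 and 11967 (−0.25 and −0.31). The third lowest after IL-1α was *Rpl7*, which had 25583, 25646, 28879 and 28611 (−0.17 and −0.16), a large-subunit protein that contacts the rRNA. *Rpl37a*, a zinc-finger protein, had 11346, 11670, 12898 and 12360 (−0.18 and −0.08), and *Rpl31* had 12606, 12803, 14231 and 13901 (−0.17 and −0.12). *Rpl12*, at the base of the stalk, was lower by less, with 18884, 19486, 19758 and 20865 (−0.07 and −0.10). In these 6 genes both +*GFP* libraries lay below both +*MK2* libraries, and the ratios were beyond counting error at both times. *Rpl8* and *Rpl37* were within 0.04 of 0 at both times.

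The signs rest on how the libraries were scaled. With the values scaled to *Gapdh*, which had 40535, 41826, 38926 and 38970 normalized counts, 64 parental genes were higher and 13 lower at both times. As such a scaling moves every gene by the same amount, the distance of the parental median from that of the expressed genes, 0.17 untreated and 0.21 after IL-1α, is not altered by it.

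After 1 h of IL-1α the parental genes were nearly where they had been. In +*GFP* the median log2 ratio of IL-1α to UT was 0.04 (−0.03 to 0.16), with the expressed genes at 0.01 and the abundant genes at 0.03. None of the 77 differed by at least 25%, against 18.4% of the expressed and 4.46% of the abundant genes, and none reached 2-fold, against 3.85%. In +*MK2* the median was 0.00 (−0.06 to 0.14), beside 0.01 for the abundant genes. Again none differed by 25%, where 12.9% of the expressed and 0.597% of the abundant genes did, or by 2-fold, where 1.92% of the expressed genes did. All genes of this level, the parental ones included, were nearly as still. Of the 364 with means from 10000 on, 1.65% differed by at least 25% in +*GFP* and 0 in +*MK2*, and their median absolute log2 ratios were 0.048 and 0.024, where the 67 parental genes among them had 0.038 and 0.018.

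The highest ratio in +*GFP* was that of *Rpl27a*, which had 11608 untreated and 12984 after IL-1α (log2 ratio 0.16), followed by *Rpl36* (0.12) and *Rpl5* (0.11). In +*MK2* the highest was that of *Rpl23*, with 15641 and 17214 (0.14), followed by *Rpl35* (0.13) and *Rpl27a* (0.09). The lowest ratios were those of *Rpl13* (−0.03) in +*GFP* and of *Rpl37a* (−0.06) in +*MK2*. Ratios beyond counting error numbered 49 higher and 2 lower in +*GFP*, and 14 higher and 7 lower in +*MK2*. These are 66.2% and 27.3% of the parental genes, beside 32.3% and 19.6% of the expressed genes, 42.9% and 26.2% of the abundant genes, and 70.3% and 39.0% of those with means from 10000 on. For 20 of the 77 genes both responses were within counting error. The direction of these small responses depended on the scaling, since 68 genes were higher in +*GFP* as deposited and 34 when scaled to the library total, and 42 and 26 were in +*MK2*.

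Genes of related functions were counted in the same way. Of 16 other mRNAs of the translation apparatus, 12 were higher in untreated +*GFP* and 14 after IL-1α, with medians of 0.12 and 0.15. Of the 5361 abundant genes, 3023 and 3208 were higher. At each time 2 of the 16 differed by at least 25%. The shares were 35.1% and 37.8% of the expressed and 20.3% and 22.4% of the abundant genes. *Eef2*, the elongation factor that drives translocation, had 99936, 103436, 78118 and 79609 normalized counts (0.36 and 0.38). *Hnrnpa1*, an RNA-binding protein counted among the TOP mRNAs, had 21152, 22553, 16908 and 17426 (0.32 and 0.37). Both lay higher in both +*GFP* libraries, by about as much as *Rps20*.

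The 24 genes of ribosome biogenesis were split instead, with 11 higher and 13 lower untreated (median −0.02) and 3 different by at least 25%, all lower, beside the 35.1% of the expressed and 20.3% of the abundant genes. After IL-1α 14 were higher and 10 lower (median 0.04). At that time 2 differed by at least 25%, 1 in each direction, beside 37.8% of the expressed and 22.4% of the abundant genes. In +*GFP* 22 of the 24 were higher after IL-1α than untreated, at a median log2 ratio of 0.11. So were 3436 of the 5361 abundant genes, which had a median of 0.03. Scaling to the library total moves each such ratio in +*GFP* by −0.04, and the 24 genes were not counted again with it. *Wdr12*, of the complex that matures the large subunit, had 3553, 3971, 5088 and 5487 (−0.52 and −0.47). *Nmd3*, which exports the large subunit from the nucleus, had 2143, 2516, 3020 and 3071 (−0.49 and −0.29). *Rrs1*, needed for 5S rRNA assembly, had 3260 untreated and 5310 after IL-1α in +*GFP*, a log2 ratio of 0.70, and 4020 and 4059 in +*MK2*. It was the only gene of this list that differed by at least 25% after IL-1α in either line. Whether this response differs between the lines was not tested.

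The 78 genes of mitochondrial ribosomal proteins had medians of −0.01 and 0.03 between the lines, with 37 higher and 41 lower untreated. A difference of at least 25% was seen for 12 untreated and for 12 after IL-1α, beside 35.1% and 37.8% of the expressed and 20.3% and 22.4% of the abundant genes. *Mrps31* was the lowest of them, with 334, 326, 600 and 659 (−0.84 and −1.01). Among the 10 ribosomal protein kinases, TOP regulators and *Myc*, the median was 0.17 untreated and 0.10 after IL-1α. *Rps6ka3*, a kinase that phosphorylates the small-subunit protein RPS6, had 2961, 3102, 2225 and 2335 (0.41 at both times), and *Rps6kb2*, another kinase of RPS6, had 501, 374, 437 and 361, with log2 ratios of IL-1α to UT of −0.42 in +*GFP* and −0.27 in +*MK2*.

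The pseudogenes were far lower and far less even. Of the 322, 82 were at 0 in all 4 libraries, where a count of 0 allows up to 3 counts, and another 156 had some counts but a mean under 10. A mean of at least 10 was reached by 84, of at least 100 by 30 and of at least 1000 by 2. The entries just outside the minimum were *Rpl31-ps9* (8, 24, 3 and 3), *Rpl31-ps14* and *Rpsa-ps12* at means of 9.5, 9.5 and 9, and those just inside were *Rps2-ps7*, *Rps15-ps3* and *Rpl7-ps8* at 10.25, 10.5 and 11. The 322 together held 22185, 20745, 20335 and 18103 normalized counts, which is 1.43%, 1.31%, 1.47% and 1.31% of the counts of the whole set of 416. This share was lower after IL-1α in both lines.

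Most were plain retrocopies. GENCODE M21 lists 303 of them as processed pseudogenes, 9 as transcribed processed pseudogenes, 8 as protein coding and 1 as a lincRNA, while 1 had no match. A single exon was annotated for 305 of 321. The identity to the parental transcript, for the 310 that aligned over at least 50% of their length, ran from 72.0% to 100% with a median of 96.3%. It was 99.1% among those with a mean of at least 10 and 94.1% among the rest. No expressed coding gene overlapped 265 of them, of which 25.3% had a mean of at least 10. An expressed coding gene lay on the opposite strand at 42 (26.2% with a mean of at least 10), and 14 lay inside an expressed gene on the same strand, without overlapping its exons (35.7%).

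The level of a pseudogene went with the sequence it shared with its parent. Each copy was cut into every window of 38 bases, the read length in the labels, and the share of windows also present in the parent's transcripts was counted for the 318 copies whose parent has a sequence. Of the 13 copies that lie wholly within the parent, 12 had a mean of at least 10, with a median mean of 537, and they held 58.4% of all pseudogene counts. Of 11 copies that share 90% to under 100% of windows, 9 reached a mean of 10 (median 159), and of 84 that share 50% to under 90%, 46 did (median 13.1). Of 99 copies with 10% to under 50%, 14 did, at a median of 2. Of the 111 copies with less than 10% of windows in the parent, 2 did, and these 111 held 0.542% of the pseudogene counts. For 35 of the 322 no window was their own, that is, each also occurred in another gene of the annotation, and 18 of these 35 had a mean of at least 10. Shared reads and transcription of the copy itself cannot be told apart from these values.

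**Figure D3:**
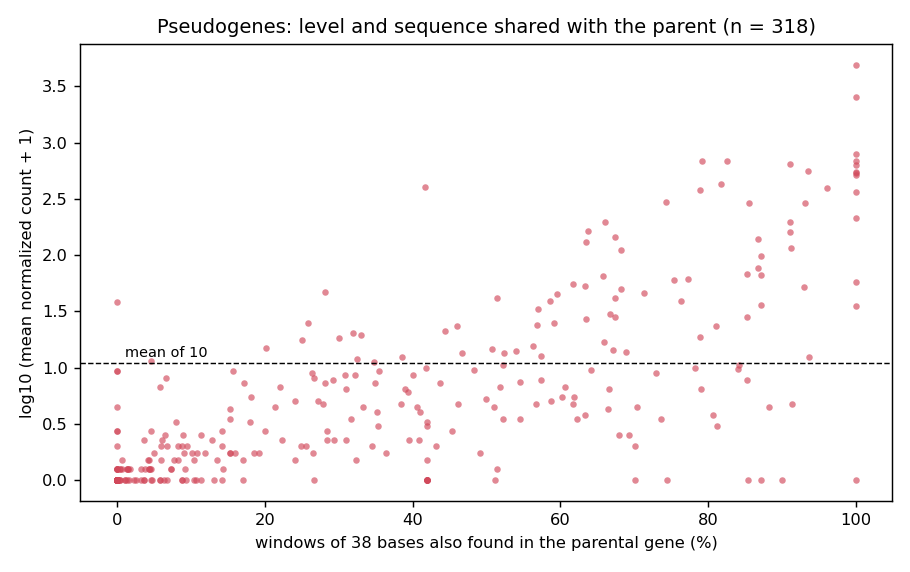
Mean normalized count over the 4 libraries of 318 pseudogenes, as log10 of the mean plus 1, against the percentage of their 38-base windows that are also found in the parental gene. The dashed line marks a mean of 10; of 111 copies with under 10% of windows in the parent 2 lie at or above it, and of 13 copies with all windows in the parent 12 do.

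Some copies with much sequence of their own were still counted. *Rps18-ps4*, annotated as a lincRNA that contains the copy, has no window in common with *Rps18* and 1006 of its own, and had 50, 46, 27 and 27 normalized counts. *Rps15a-ps4*, a transcribed processed pseudogene with 41.7% of windows in the parent, had 429, 409, 398 and 357. Both were chosen after their values were seen, as the highest of the copies with under 10% and with 10% to under 50% of windows shared. *Rps19-ps3*, the diverged copy printed above, shares 30.1% of windows with *Rps19* and had 18, 11, 12 and 28, while *Rps19* had 15553, 15464, 13172 and 12846.

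The highest pseudogene was *Rps23-ps1*, which has no base of its own. It had 5403, 5228, 4563 and 4485 normalized counts, beside 13849, 14628, 11861 and 11930 for *Rps23*, a protein of the decoding center. The log2 ratio between the lines was 0.24 and 0.22 for the copy and 0.22 and 0.29 for the parent, so both entries lay higher in both +*GFP* libraries. The copy held 26.3% to 28.1% of the counts of the *Rps23* family, with no correction for length.

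*Rps6-ps4*, which matches *Rps6* at all 750 of its bases, was the second highest, with 3263, 2587, 2347 and 1958. *Rps6*, the small-subunit protein phosphorylated by S6 kinases, had 26850, 28366, 23090 and 23424. After IL-1α the copy was lower in both lines (log2 ratios −0.33 and −0.26), while the parent was at 0.08 and 0.02. Entries with the same bases thus gave log2 ratios of opposite sign in the same pair of libraries in +*GFP*. In +*MK2* the signs were opposite too, but the parent's ratio was only 0.02.

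The other 10 of the 12 highest copies lay between means of 518 and 791. Those without any base of their own were *Rpl31-ps8* (820, 752, 822 and 769), *Rps16-ps2* (769, 594, 732 and 650), *Rpl15-ps3* (726, 641, 667 and 482), *Rpl10a-ps1* (476, 682, 563 and 448), *Rpl27-ps3* (720, 501, 222 and 704) and *Rpl28-ps1* (583, 566, 451 and 471). The remaining 4 differ from their parents at some positions. *Rpsa-ps10* had 683, 696, 848 and 517, *Rpl14-ps1* had 810, 643, 705 and 571, *Rpl9-ps6* had 629, 724, 626 and 584, and *Rpl3-ps1* had 542, 592, 560 and 524. *Rpsa-ps10* lay below +*MK2* in untreated +*GFP* (−0.31) and above it after IL-1α (0.43), whereas *Rpsa* was higher in +*GFP* at both times. Only *Rpl10-ps1* among the copies wholly within their parent was at 0 in all libraries.

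Identical copies had uneven values. The 4 twins of *Rpl35a* printed above cannot be distinguished by any read that lies within them. *Rpl35a-ps2* had 82 (+*GFP*, UT), 178 (+*GFP*, IL-1α), 0 (+*MK2*, UT) and 0 (+*MK2*, IL-1α). *Rpl35a-ps3* had 0, 0, 205 and 186. *Rpl35a-ps6* had 140 in untreated +*GFP* and 0 in the other libraries, and *Rpl35a-ps4* was at 0 throughout. Summed over the 4 twins, the values were 222, 178, 205 and 186, so that the highest library exceeded the lowest by 1.2-fold.

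Read entry by entry, these twins would be among the largest differences between the lines. Against a floor of 3 counts per library, *Rpl35a-ps2* was at least 27.3-fold higher in untreated +*GFP* and at least 59.3-fold higher after IL-1α. *Rpl35a-ps3* was at least 68.3-fold lower untreated and at least 62.0-fold lower after IL-1α. *Rpl35a-ps6* was at least 46.7-fold lower after IL-1α in +*GFP*. The summed twins had log2 ratios of 0.11 untreated and −0.06 after IL-1α. *Rpl35a* itself had 9460, 9726, 8266 and 8330 (0.19 and 0.22).

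A similar pattern was seen in a pair of copies that both lie wholly within *Rpl27*. *Rpl27-ps3* had 720, 501, 222 and 704, and *Gm11518*, a copy not named after its parent, had 672, 670, 1138 and 478. Each was low where the other was high in the +*MK2* libraries. Their sum was 1392, 1171, 1360 and 1182, within 1.19-fold, while *Rpl27-ps3* alone spanned 3.23-fold. A further identical pair was low, with *Rps19-ps1* at 16, 10, 0 and 0 and *Rps19-ps2* at 0, 0, 7 and 3. Here the sum, at 16, 10, 7 and 3, was itself uneven, spanning 4.25-fold after adding 1. The 5 identical copies *Rps12-ps11* to *Rps12-ps15* summed to 8, 2, 7 and 2, and a further 3 identical copies of *Rps12* were at 0.

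**Figure D4:**
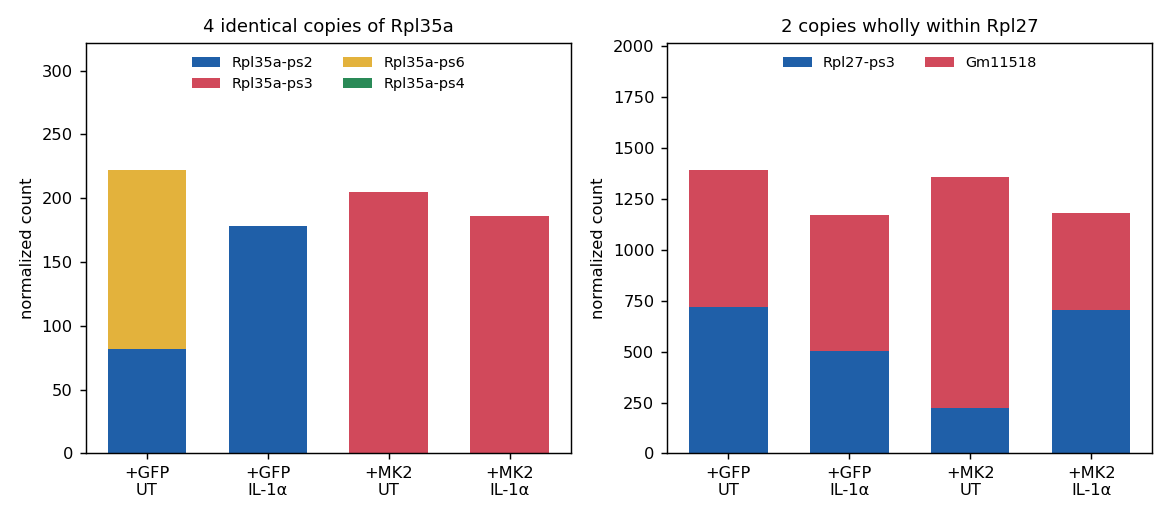
Normalized counts in each library, stacked over the 4 identical copies of *Rpl35a* (left; *Rpl35a-ps4* is at 0) and over the 2 copies that lie wholly within *Rpl27* (right). The stacks differ by 1.2-fold and 1.19-fold at most, while single copies go from 0 to 205 and from 222 to 720.

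Between the lines, the 84 pseudogenes with a mean of at least 10 had median log2 ratios of 0.05 untreated and 0.17 after IL-1α, with or without entries at 0 set to the floor. A difference of at least 25% was seen for 40 untreated (17 higher, 23 lower) and for 43 after IL-1α (30 higher, 13 lower), that is 47.6% and 51.2%, beside the 35.1% and 37.8% of the expressed genes. At least 2-fold was reached by 11 and 12, or 13.1% and 14.3%, beside 8.77% and 9.73%. Beyond counting error were 12 higher and 14 lower untreated, and 23 higher and 6 lower after IL-1α, that is 31.0% and 34.5%, beside 57.7% and 60% of the expressed genes. These 84 passed a minimum level and are not all pseudogenes.

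Low counts alone give wide ratios, so the copies were set beside genes of the same level. Of the 54 pseudogenes with means from 10 to under 100, 34 (63.0%) and 33 (61.1%) differed by at least 25% between the lines, where 63.7% and 67.1% of the 2590 genes of that level did. Of the 28 with means from 100 to under 1000, 5 (17.9%) and 9 (32.1%) did, where 36.3% and 39.1% of 4532 genes did. From 10 to under 100 the untreated share of the copies was nearly that of all genes. From 100 to under 1000 it was lower for the copies at both times, on only 28 copies. Of the only 2 copies with means from 1000 on, 1 differed by at least 25% at each time, where 20.7% and 22.9% of the genes from 1000 to under 10000 did. None of these shares was tested.

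After IL-1α the picture was another. In the range from 100 to under 1000, 10 of the 28 copies (35.7%) differed by at least 25% in +*GFP* and 13 (46.4%) in +*MK2*, where 15.2% and 8.56% of the genes of that level did. The median absolute log2 ratio was 0.15 for the copies and 0.12 for all genes of that level in +*GFP*, and 0.30 and 0.09 in +*MK2*. Over all 84 the medians were −0.04 and −0.16, and a difference of at least 25% was seen for 45 and 46 copies (53.6% and 54.8%, beside 18.4% and 12.9% of the expressed genes), of which 22 and 14 were higher and 23 and 32 lower. At least 2-fold was reached by 9 and 10 (10.7% and 11.9%, beside 3.85% and 1.92%). Most expressed genes have higher levels than these copies. For the 54 copies with means from 10 to under 100, 63.0% and 61.1% differed by at least 25%. At that level 52.8% and 45.9% of all genes did. At least 2-fold was reached by 16.7% of these 54 in each line, beside 13.2% and 8.30% of the genes of that level. Of the 30 copies with a mean of at least 100, 20 were lower after IL-1α in +*GFP*, 24 in +*MK2* and 14 in both. Among the 12483 expressed genes 5554 were lower in +*GFP* and 5638 in +*MK2*, and among the 5361 abundant genes 1912 and 2201. Genes with means from 100 to under 1000 were not counted by direction. Their median log2 ratios were −0.004 and 0.003, where the 28 copies of that range had −0.07 and −0.30. The parental genes, which are far more abundant, had a median of 0.00 in +*MK2*. None of these counts was tested.

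**Figure D5:**
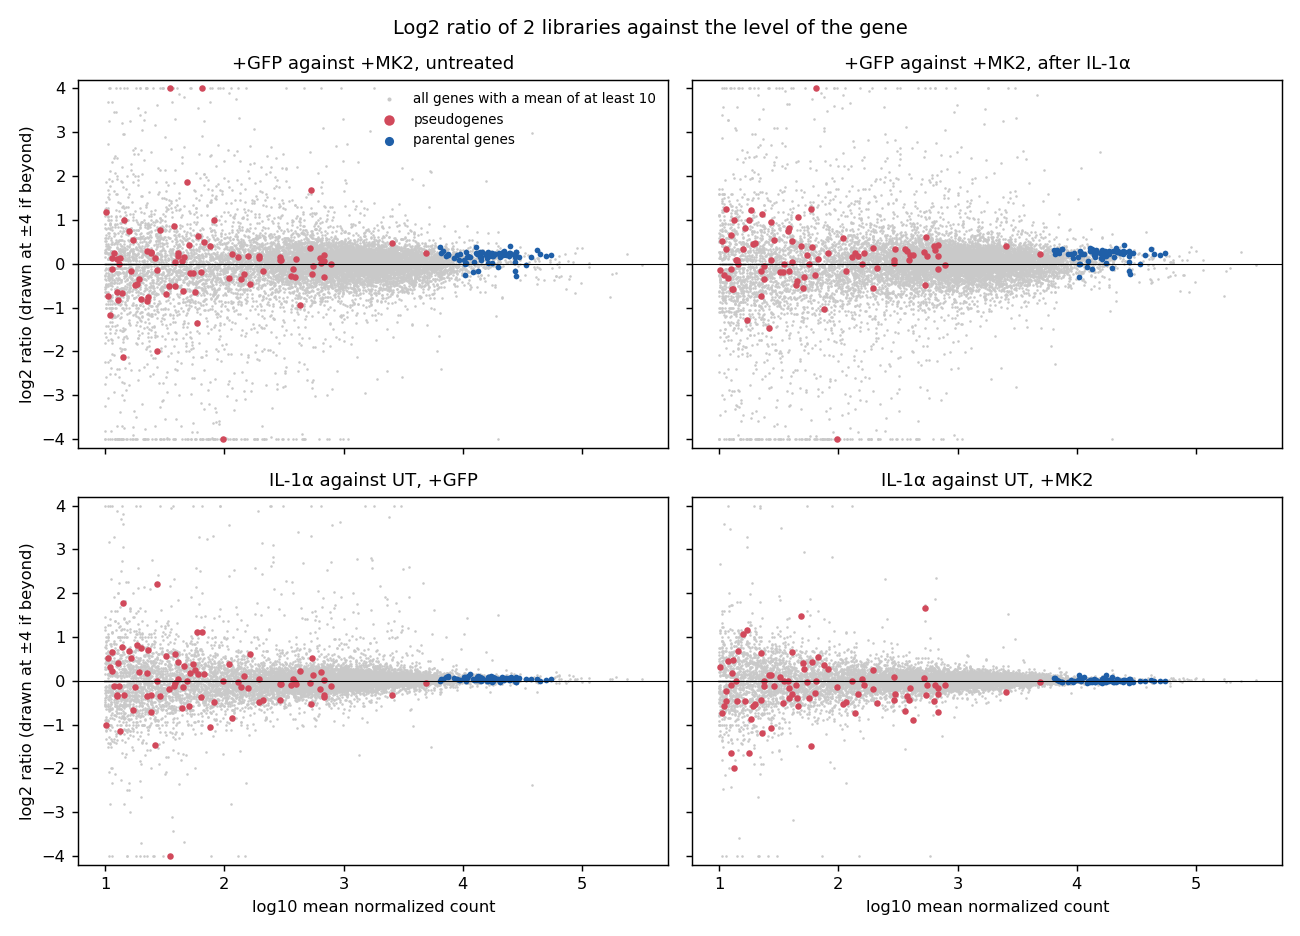
Log2 ratio of 2 libraries against the log10 mean level, for all expressed genes (grey), pseudogenes (red) and parental genes (blue), with ratios beyond 4 drawn at the edge. The parental genes form a narrow band that lies slightly above 0 in the line comparisons (upper panels) and at 0 for IL-1α (lower panels), and the pseudogenes spread widely on both sides in all 4 panels.

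Unlike the parental genes, the copies had no common order of libraries. Both +*GFP* libraries lay above both +*MK2* libraries for 19 of 84, below for 8 and overlapped for 57 (67.9%), where 31.9% of the expressed genes overlapped. The highest value exceeded the lowest by a median of 1.63-fold over the 84, where the expressed genes had 1.28-fold. However, 54 of the 84 copies have means under 100, as do only 2590 of the 12483 expressed genes. Low counts alone make libraries overlap and spread more, and genes of the copies' level were not counted for either. The sign of the ratio between the lines was the same untreated and after IL-1α for 38 of 84. Pearson's r between these ratios was 0.642 over the 84 while Spearman's rho was −0.043. Over the 30 copies with a mean of at least 100, Pearson's r between these ratios was −0.479 and Spearman's rho −0.323, values that describe these libraries only.

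Several low copies had the widest ratios. *Rpl17-ps3* had 7, 36, 31 and 34, and *Rpl29-ps2* had 4, 16, 21 and 15, so that the untreated +*GFP* library was the low one in both. *Rpsa-ps2* had 65, 65, 17 and 49, with the untreated +*MK2* library low. *Rps15a-ps6* had 32, 11, 29 and 32, and *Rps2-ps6* had 21, 9, 19 and 4. In each of these a single library or condition set the ratio, and at such counts the intervals are wide. The median width to each side of the log2 ratio was 0.61 for the 84 pseudogenes and 0.03 for the parental genes.

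Summing each family shows how far the copies touch the parental values. Of the 77 parents, 62 have at least 1 copy with -ps in its name, up to 24 for *Rpl31* and for *Rps12*. Only 5 parents had over 5% of the family's counts on such copies in any library. A further 169 entries outside the naming rule share at least 50% of their windows with a parental gene, of which 28 overlap the parent's own locus, 71 had a mean of at least 10 and 7 of at least 1000. These took 3.22%, 3.10%, 3.48% and 3.25% of the families' counts in the 4 libraries, more than the copies with -ps in their names. With all 169 counted as copies, those at the parent's own locus included, 14 parents had over 5% and 9 over 10% of the family's counts on copies.

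The largest of these was *Gm15500*, a transcribed processed pseudogene of *Rpl5*, with 22291, 21838, 19239 and 18796 normalized counts beside 11354, 12255, 10069 and 10478 for *Rpl5*. Copies thus held 64.1% to 66.3% of the *Rpl5* family, with no correction for length. *Gm7536*, a copy of *Rpl27a*, had 7071, 7222, 6720 and 6402. *Gm2000*, annotated as protein coding and a copy of *Rpl35*, had 5193, 5284, 6617 and 6447, and like *Rpl35* it was lower in both +*GFP* libraries. *Gm10275*, a copy of *Rpl12*, had 3367, 3328, 3870 and 3347.

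Adding all copies to their parents, entries at the parent's own locus included, hardly moved the comparison of the lines. The median log2 ratio over the 77 families was 0.19 untreated and 0.24 after IL-1α, the same as for the parents alone at this precision, with 69 and 70 families higher. The largest shift of a single family was 0.04 for *Rpl35* untreated, and 0.06 for *Rpl27* when only the copies with -ps were added. *Rpl35* and *Rpl7a* thus stayed lower in +*GFP* with their copies included. The small ratios of IL-1α to UT moved by more relative to their size. In +*GFP* that of *Rpl27a* went from 0.16 to 0.11 and that of *Rpl5* from 0.11 to 0.02, while *Rpl36* was at 0.12 and 0.11. In +*MK2* that of *Rpl23* went from 0.14 to 0.07, that of *Rpl35* from 0.13 to 0.07 and that of *Rpl27a* from 0.09 to 0.03. With all copies added, 1 family changed sign in +*GFP* and 7 in +*MK2*.

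Of the 17 related genes 11 had a mean of at least 10, and 3 were at 0 in all libraries. *Rpl22l1*, the paralog of *Rpl22*, had 2365, 2481, 2284 and 2137. *Rpl36al* had 6379, 6491, 5719 and 5699 (log2 ratios of the lines 0.16 and 0.19), close to the parental median. *Rps27l*, a paralog of *Rps27* known as a p53 target, had 4251, 4346, 4401 and 4368, with ratios of −0.05 and −0.01. *Rpl7l1* had 4956, 4919, 4680 and 4896. *Rps19bp1*, which is not a ribosomal protein but binds RPS19, was lower in both +*GFP* libraries, with 786, 798, 962 and 1015. *Rpl3l*, the striated muscle paralog of *Rpl3*, was near the minimum with 20, 17, 6 and 6, and *Rpl6l* had 113, 90, 76 and 69. The copies *Rps3a2* (295, 161, 251 and 190), *Rpl37rt* (321, 346, 306 and 193), *Rps27rt* (110, 111, 101 and 80) and *Rps3a3* (26, 27, 18 and 22) were of the level of the pseudogenes.

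The start sites were examined for the TOP motif, since most parental genes lay on the same side between the lines. Of the 77 parental genes 57 were in the RefSeq promoter table (GRCm38.p6), with 67 start sites, while 2 pseudogenes were. A start that is a C followed by at least 4 bases that are C or T was found at 13 of 67 starts (19.4%), against 823 of 32851 starts of all genes (2.51%). Such a run within 5 bases of the annotated start was found at 43.3% against 18.3%. None of the 75 starts of mitochondrial ribosomal protein genes had it at the start itself. TATAAA between 40 and 15 bases before the start occurred at 0 of 67 starts and at 1.99% of all starts, and both motifs were read on the strand of the gene only. A match is a description of these letters and not a mapped site.

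The starts of 4 genes are shown, 10 bases before and 20 from the annotated start on, with its first 10 bases in capitals. They are those of *Rpl35* (chr2:39005112-39005141, minus strand), the lowest after IL-1α in the line comparison, of *Rps6* (chr4:86857348-86857377, minus strand) and *Rpl15* (chr14:18270967-18270996, minus strand), both higher in +*GFP*, and of *Rpl13a* (chr7:45128726-45128755, minus strand), which begins with G. The first 3 have the TOP-like start at the annotated base itself. In *Rpl13a* such a run begins within 5 bases of the annotated start.
Rpl35: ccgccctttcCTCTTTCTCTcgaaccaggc
Rps6: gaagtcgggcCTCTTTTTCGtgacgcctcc
Rpl15: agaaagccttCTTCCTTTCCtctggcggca
Rpl13a: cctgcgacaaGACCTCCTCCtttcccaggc

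Of the 6 genes lower in untreated +*GFP* that had a promoter entry, 1 (16.7%) had a TOP-like start, and of the 51 higher ones 12 (23.5%) did. Counted within 5 bases of the annotated start the order was the other way, with 4 of 6 (66.7%) and 23 of 51 (45.1%). These shares rest on few genes and were not tested.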

How the data were processed

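RNA from 4 samples, 1 per condition, was sequenced as bulk RNA-seq. Per the labels, polyA-selected, strand-specific libraries were read as 38 bases from each end. The study's methods describe depletion of ribosomal RNA and single reads of 75 bases, and the conflict was not resolved. The deposited values are whole-number scores, that is, DESeq2-normalized counts that the authors rounded; the submitters' processing notes name DESeq2 and GRCm38 without versions. The column names point to salmon, which divides a read among entries it fits equally. The size factors were not used here, so raw reads per library are unknown, and count models were not run. Positions in the table equal those of GENCODE M21 (GRCm38) for only 2.87% of the 52080 entries matched by identifier, while spans equal for 98.9%, so the table's build is another, not named in the sources used here, and its positions are not printed. The printed positions and sequences are those of GENCODE M21 and RefSeq.

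Log2 ratios of 2 libraries were computed with a pseudocount of 1, and features with a mean of at least 10 were compared. With 1 library per condition no test was run, and differences of at least 25% and of at least 2-fold were counted. Counting intervals (95%, Clopper-Pearson) treated normalized counts as reads. Sequence windows of 38 bases were compared over the annotated transcripts, and copies were aligned to the parental transcript (Biopython 1.88). The script's counts and intervals were tested on simulated data. Other tools were Python 3.11.15, pandas 2.3.3, numpy 2.4.6, scipy 1.17.1 and matplotlib 3.10.9. The members, gene lists and naming rules were chosen with earlier results of these data known. Genes were named by rank: the 5 highest and 5 lowest parental genes per coding kilobase, the 3 largest differences each way per comparison, the 12 highest pseudogenes and those with the widest ratios, the related genes, and the 2 highest and lowest of each other list, of which some are given. A single gene is not reported by name here. Alternatives were the pseudocount (0.5 and 5), the minimum mean (1 and 50), 3 other scalings, and adding copies to parents.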

Additional observations from a re-analysis of the deposited data

Results flagged for a closer look

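After IL-1α, 3 of the 77 parental genes and 4 of the 84 pseudogenes with a mean of at least 10 moved in opposite directions in the +*GFP* and +*MK2* lines, each beyond counting error. So did 3.52% of the 12483 expressed genes and 4.94% of the 5361 abundant genes, beside 3.90% and 4.76% here. With 1 library per condition this difference was not tested. The value given is the log2 ratio of IL-1α to UT in +*GFP* minus that in +*MK2*.

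Among parental genes, all of the large subunit, the difference was 0.10 for *Rpl37a* (11346 to 11670 in +*GFP*, 12898 to 12360 in +*MK2*), 0.10 for *Rpl6* (31063 to 32362, and 28104 to 27368) and 0.075 for *Rplp1* (29762 to 30314, and 25658 to 24803). *Rpl6* and *Rplp1* kept both +*GFP* libraries above both +*MK2* libraries. Scaled to the library total or to *Gapdh*, none of the 3 moved in opposite directions beyond counting error. The ratio of *Rpl37a* in +*GFP* was then −0.0028 and −0.0046, that of *Rplp1* −0.017 and −0.019, and that of *Rpl6* 0.016 and 0.014, all within counting error. With a trimmed mean of log ratios 1 of the 3, *Rpl6*, did so.

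Among pseudogenes it was 0.85 for *Rpl10a-ps1* (476 to 682, and 563 to 448) and −2.18 for *Rpl27-ps3* (720 to 501, and 222 to 704), both of which lie wholly within their parent. It was 2.59 for *Rps18-ps3* (35 to 77, and 91 to 32) and 1.14 for *Rps7-ps3* (334 to 393, and 638 to 341), which share 75.4% and 81.8% of their 38-base windows with theirs. In *Rps18-ps3* and *Rps7-ps3* the untreated +*MK2* library was the highest of the 4, and in *Rpl27-ps3* it was the lowest. With the total or *Gapdh*, 3 of the 4 copies still moved in opposite directions beyond counting error. *Rps7-ps3* did not, at 0.19 in +*GFP* with either. The sum of *Rpl27-ps3* and *Gm11518*, which both lie wholly within *Rpl27*, was lower after IL-1α in both lines. Its log2 ratios were −0.25 in +*GFP* and −0.20 in +*MK2*. The counting intervals do not cover how reads are divided between such copies.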

How the results depend on the processing

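Of 116 alternative values for 20 results, 101 stayed within the spread allowed, 13 moved and 2 changed sign beyond it. For a median, this spread was the median width to each side of the counting intervals of single genes. It was 0.03 for parental genes and 0.61 for pseudogenes, so wide that no pseudogene median left it. A minimum mean of 1 or 50 could not alter a parental value, as the lowest parental mean was 6480. Staying within the spread is therefore weak evidence of stability. In all, 8 of the alternative values, all for medians near 0, had another sign. The parental medians of the line comparisons stayed between 0.14 and 0.24 on the log2 scale over 18 alternatives. Scaled to *Gapdh*, the untreated median was 0.14 (0.19 as deposited) and that after IL-1α 0.14 (0.24). Scaled to the library total, the latter was 0.20. With either scaling 3 parental genes differed by at least 25% after IL-1α instead of 7. The small parental response to IL-1α in +*GFP* (0.04) became −0.01 with the total (−0.0050) and with *Gapdh* (−0.0069). Within the spread, the parental response in +*MK2* (0.0015) lay between −0.0101 and −0.00017 in 5 alternatives, and the untreated pseudogene median (0.049) was −0.0079 with *Gapdh*. A minimum mean of 50 keeps 42 pseudogenes. Of these, 15 and 16 differed by at least 25% between the lines untreated and after IL-1α. Between IL-1α and UT 18 and 19 did in +*GFP* and in +*MK2*. The counts given above, 40, 43, 45 and 46, were of 84 pseudogenes. The share of all genes at this minimum was not counted. Counting only pseudogenes with a mean of at least 10, their share of the set was 1.40%, 1.28%, 1.44% and 1.28% in the 4 libraries. Had each library held 0.5 times the reads assumed, 72 and 73 parental ratios between the lines would be beyond counting error, close to the 73 and 73 given above, and 36 and 11 of those after IL-1α instead of 51 and 21 (a check added after seeing the data). No paired analysis was possible because each group has 1 library, and leaving out a library leaves no comparison.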
